A study of Mus musculus with 6 samples.

Results

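The apolipoproteins examined here are the products of Apoa1, Apoa2, Apoa4, Apoa5, Apob, Apoc1, Apoc2, Apoc3, Apoe and Apom, and every probe that the platform annotation assigns to 1 of these symbols was taken. All 10 genes were found, on 16 probes, among 19057 named genes and 45281 probes on the array. RNA of liver tumours and of the liver beside them had been hybridised to Illumina bead arrays, which report a transcript as the brightness of a matching probe. Each of the 3 C57BL/6J mice, numbered 1293, 1309 and 1316, gave 1 tumour array and 1 adjacent liver array. All 3 had been injected on the day after birth with 3e+10 particles of an adeno-associated virus vector, AAV-Rian-CMV, and tissue was taken at 6 months, so the adjacent livers carry the same treatment as the tumours. The reference is therefore injected liver next to a tumour, and liver of uninjected mice was not analysed here. For the tumour of animal 1316 another label gives the number 1306; the sample title was followed, and the pairing of that tumour with its adjacent liver rests on it.

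Apolipoproteins are the protein part of the particles that carry triglycerides and cholesterol through the blood, and hepatocytes are their main source. Apolipoprotein B forms the backbone of very low density and low density lipoproteins, and apolipoproteins A-I and A-II that of high density lipoproteins (HDL). The C, A-IV and A-V proteins move between particles and set how fast lipases remove their triglycerides, apolipoprotein E is the ligand by which receptors take up remnants, and apolipoprotein M carries sphingosine-1-phosphate on HDL.

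Median raw signals of the 6 arrays lay between 138.4 and 160.5 units, and the highest raw signals between 47477.6 and 56349.7. The level above which a probe counts as above background was estimated at 168.5 to 191.7 units, and all 16 apolipoprotein probes were above it on all 6 arrays. Each group holds 3 arrays, which limits the precision of every value. Levels below are log2 signals after background correction and quantile normalization, with the SD over 3 arrays, and differences are tumour minus adjacent liver on the same scale, with their standard error (SE). Of 10 hepatocyte markers 8 were above background on at least 3 arrays, and the probes of the other 2, Fgb and Tat, named here after their values were seen, were not above background on any array. The only probe of Alb, the serum albumin gene, was at 7.71 ± 0.10 beside the tumours and at 6.87 ± 0.26 within them (SD, n = 3). It was above background on 2 of 3 tumour arrays, although albumin is an abundant transcript of liver.

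No apolipoprotein gene passed an adjusted p of 0.05 (limma): 0 of 10 genes and 0 of 16 probes were called. Unadjusted p-values under 0.05 were found for 2 of the 10 genes, Apom and Apoc2, beside 3644 of the 19057 named genes. They were also found for 4 of the 16 probes, a count that was not made over all probes. Over all named genes 992 were called, which is 5.21% of those tested, with 3.64% higher and 1.56% lower in tumours. Over all probes 3.45% were called. Higher genes made up 70.0% of those called, against 85.3% with arrays scaled to their medians, 89.3% without normalization, 88.5% with an offset of 16 and 80.7% without background correction. The share was 59.4% with the animal as a fixed replicate block, 66.8% with it as a random block and 58.2% without the tumour of animal 1309. The fitted difference was below 0 for 9 of the 10 genes and above 0 for Apoc2, and the median over the 10 was −0.14 beside −0.01 over all genes. With a median below 0, more genes of the whole array lay below 0 than above it too. Their share was not counted, so the 9 of 10 has no exact share beside it. Of the 9, Apoa2, Apoc1, Apoc3 and Apoe lay closer to 0 than their SE, and Apoa1 and Apoc3 changed sign under other settings. Groups that did not overlap were found for Apom, lower in all 3 tumours, and for Apoc2, higher in all 3, where 11.0% of all genes were lower and 11.6% higher without overlap.

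**Figure D1:**
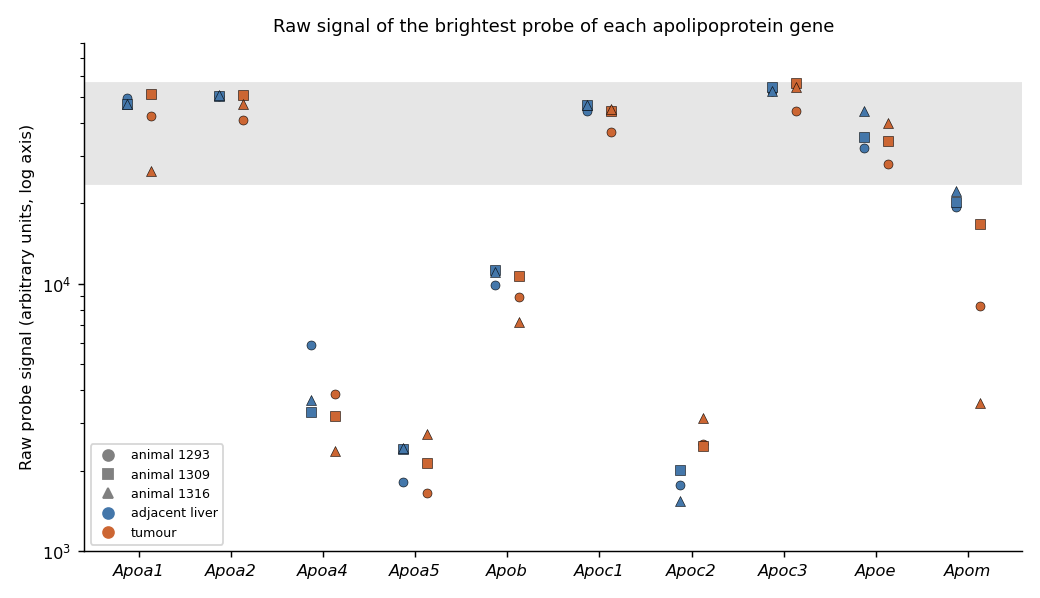
Raw signal of the brightest probe of each apolipoprotein gene on 6 arrays (arbitrary units, log axis), in adjacent liver (blue) and tumours (orange), with a marker shape for each animal; the grey band runs from 1 log2 unit below the lowest array maximum to the highest array maximum. The probes of Apoa1, Apoa2, Apoc1, Apoc3 and Apoe lie in the band, and the tumours of animals 1293 and 1316 lie far below the adjacent livers for Apom.

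Apom showed the widest difference of the family and the widest spread between tumours. Its brighter probe, ILMN_2769418, read 14.36, 14.27 and 14.33 in the adjacent livers of animals 1293, 1309 and 1316, and 13.25, 13.95 and 11.57 in their tumours. Its dimmer probe, ILMN_2916782, read 12.99, 12.91 and 12.96 beside the tumours and 11.56, 12.43 and 9.98 in them. On both probes the 3 adjacent livers lay close together, every tumour lay below all of them, and the order of the tumours was the same, with animal 1316 lowest and animal 1309 nearest to adjacent liver. In raw units the brighter probe read 22308.3 beside the tumour and 3589.1 in it in animal 1316, 19385.8 and 8273.9 in animal 1293, and 20251.1 and 16798.8 in animal 1309.

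The fitted Apom difference was −1.40 (SE 0.43, 95% interval −2.32 to −0.47, adjusted p = 0.113, limma) on the brighter probe and −1.63 (SE 0.43, interval −2.57 to −0.69, adjusted p = 0.066) on the dimmer. Neither passed over all probes, and the exact two-sided permutation test over the 6 arrays gave p = 0.1 for each, the smallest that 3 arrays against 3 allow. That test ignores the animals and returns this value wherever the groups do not overlap, so it adds nothing to the lack of overlap. The tumour SDs were 1.22 and 1.24, against 0.05 and 0.04 in adjacent liver. With the animal as a fixed replicate block both probes passed (adjusted p = 0.0332 and 0.016, limma), in a fit that called 3.11% of genes and 2.26% of probes lower. With the animal as a random replicate block neither did (adjusted p = 0.0909 and 0.0509). Over 17 alternative settings the adjusted p of the brighter probe ranged from 0.00588 to 0.515. Without the tumour of animal 1309 both probes passed, at −1.91 and −2.19 (adjusted p = 0.00588 and 0.0019). Without the tumour of animal 1316 the differences shrank to −0.72 and −0.97, with adjusted p = 0.0822 and 0.0315.

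**Figure D2:**
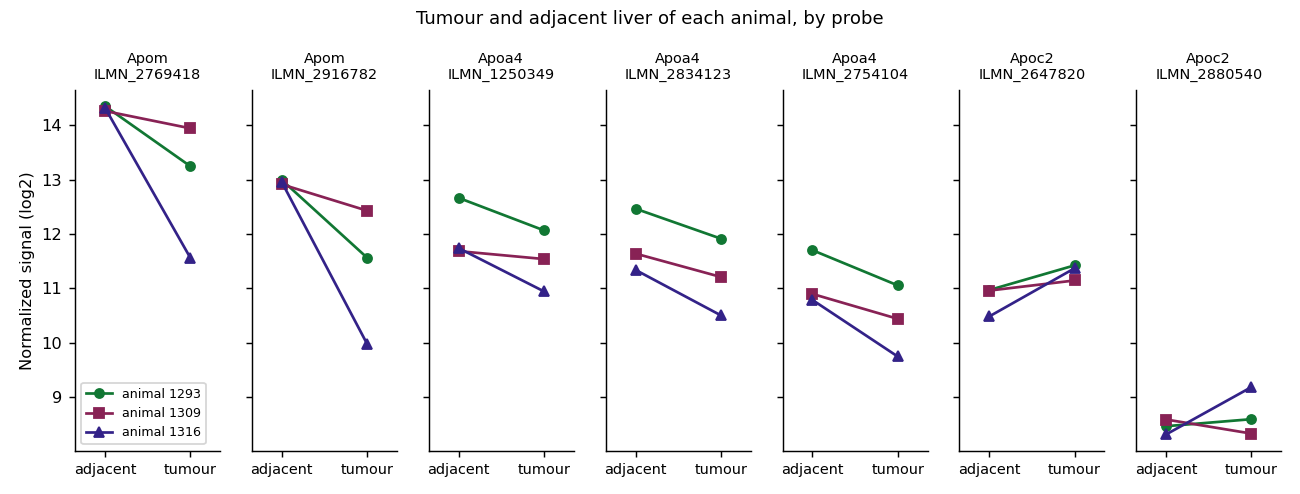
Normalized log2 signal of each Apom, Apoa4 and Apoc2 probe in adjacent liver and tumour, with a line for each animal. Tumour values lie lower in every animal for both Apom probes and all 3 Apoa4 probes, the line of animal 1316 is steepest for Apom, and tumour values of the brighter Apoc2 probe lie higher in all 3 animals.

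The letters upstream of Apom are shown because it is the member with the widest difference, beside those of Apoa4, which read lower in every animal, and Apoc2, which read higher. Each is the 250 bases before the gene's start in RefSeq, 5′ to 3′ along the gene: Apom at chr17:35131802-35132051 on the minus strand, Apoa4 at chr9:46240594-46240843 on the plus strand and Apoc2 at chr7:19677942-19678191 on the minus strand, all of build GRCm38.p6. Capitals mark matches to the motifs described after them.
Apom: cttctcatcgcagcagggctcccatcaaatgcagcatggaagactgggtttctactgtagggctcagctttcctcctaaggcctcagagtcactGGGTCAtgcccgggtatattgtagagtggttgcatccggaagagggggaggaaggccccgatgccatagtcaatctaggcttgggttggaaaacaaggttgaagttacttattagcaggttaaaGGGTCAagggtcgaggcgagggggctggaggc
Apoa4: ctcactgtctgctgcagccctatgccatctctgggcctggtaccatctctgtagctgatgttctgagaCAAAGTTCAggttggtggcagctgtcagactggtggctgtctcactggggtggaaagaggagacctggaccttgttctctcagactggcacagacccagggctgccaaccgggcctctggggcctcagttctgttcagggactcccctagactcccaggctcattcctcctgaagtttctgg
Apoc2: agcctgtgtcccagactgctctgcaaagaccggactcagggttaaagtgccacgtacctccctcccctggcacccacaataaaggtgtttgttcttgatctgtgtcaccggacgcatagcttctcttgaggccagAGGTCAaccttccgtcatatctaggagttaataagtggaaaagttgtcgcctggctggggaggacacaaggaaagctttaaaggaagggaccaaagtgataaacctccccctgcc

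The 5 motifs spelled out next were searched on both strands of the 250 upstream bases of 32851 RefSeq windows, of which 12 belonged to 8 of the 10 genes. They were chosen with these sequences in view, and their matches did not overlap in the 3 sequences shown. The nuclear receptor half-site GGGTCA lies before Apom in 2 places, from base 32 to base 27 and from base 156 to base 151 before its start, and is held by 11.6% of all windows and also by windows of Apoa5 and Apoe. Another such half-site, AGGTCA, lies before Apoc2, from base 115 to base 110, and is held by 14% of all windows and by a window of Apoa2. CAAAGTTCA, a form of the element bound by HNF4A, is held by 0.335% of windows and, among the members, by that of Apoa4, from base 182 to base 174. The forkhead motif TGTTTGC is held by 4.30% of windows and by windows of Apoa1, Apoa5 and Apob, and TATAAA by 12.4% and by windows of Apoa2, Apoa5, Apob and Apoe. A match describes the letters and is no measured binding site.

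Among 8298 named genes above background on at least 3 arrays, the 3 whose log2 signal followed the brighter Apom probe most closely over the 6 arrays were Hsd11b1 (Pearson r = 0.999), which encodes the enzyme that regenerates active glucocorticoid, the organic anion transporter gene Slco2b1 (r = 0.997) and Tfr2 (r = 0.997), which encodes a transferrin receptor of hepatocytes. These points share the division into tumour and adjacent liver, 6 arrays carry them, and no test was attached. Hsd11b1 read 14.34, 14.33 and 14.38 in adjacent livers and 13.19, 13.88 and 11.38 in tumours of animals 1293, 1309 and 1316. Its tumours stood in the same order as for Apom, and its adjacent livers did not. The tumour minus adjacent difference was −1.53 for Hsd11b1, −0.64 for Slco2b1 and −0.36 for Tfr2, and none of the 3 was called (adjusted p = 0.0958, 0.14 and 0.277, limma). Among the other members, the r with Apom was 0.92 for Apob, 0.89 for Apoa1, 0.85 for Apoa2, 0.67 for Apoa4, 0.23 for Apoc1, 0.05 for Apoc3, 0.01 for Apoa5, −0.05 for Apoe and −0.69 for Apoc2. For Apoa1, whose only low array is the tumour of animal 1316, Spearman's rho was 0.26. By rank the order of likeness changed, with rho 0.94 for Apoa2, 0.66 for Apoa4, 0.64 for Apoc1 and 0.60 for Apob. It was 0.20 for Apoe, 0.09 for Apoa5, −0.07 for Apoc3 and −0.77 for Apoc2. For Hsd11b1, Slco2b1 and Tfr2 it was 0.94, 0.83 and 0.77.

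The other proteins of HDL, A-I and A-II, were read by some of the brightest probes of the arrays. Apoa1 read 15.57, 15.44 and 15.50 in the adjacent livers of animals 1293, 1309 and 1316 and 15.57, 15.59 and 14.57 in their tumours. Only the tumour of animal 1316 was low, with raw signals of 26546.8 beside 47170 in its adjacent liver, and the groups overlapped. The fitted difference was −0.26 (SE 0.23, interval −0.76 to 0.24, adjusted p = 0.719, limma), and it turned to 0.08 without the tumour of animal 1316. Apoa2 was read by 2 probes. On the brighter, ILMN_1247156, adjacent livers read 15.62, 15.57 and 15.61 and tumours 15.53, 15.58 and 15.51. On the other, ILMN_2775957, the tumour of animal 1316 read 15.19 and the other 5 arrays between 15.51 and 15.57. Neither Apoa2 probe passed, at −0.06 (SE 0.12, interval −0.31 to 0.20) and −0.11 (SE 0.14, interval −0.41 to 0.18).

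Apob read 13.40, 13.43 and 13.30 in adjacent livers and 13.36, 13.29 and 12.64 in tumours of animals 1293, 1309 and 1316. Every tumour lay below its own adjacent liver, but the groups overlapped, and the tumour of animal 1316 held most of the difference of −0.28 (SE 0.18, interval −0.67 to 0.10, adjusted p = 0.55, limma). Without that tumour it was −0.06.

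Apoe read 15.07, 15.08 and 15.36 in adjacent livers and 14.97, 15.00 and 15.20 in tumours. Each tumour lay slightly below its own adjacent liver, and the groups overlapped (difference −0.11, SE 0.13, interval −0.41 to 0.18, adjusted p = 0.812, limma). Macrophages also make apolipoprotein E. Of 15 macrophage and Kupffer cell markers measured, 2 rose and 0 fell: Cd9, a tetraspanin gene that other cells express too, by 2.96 (SE 0.18), and Gpnmb, a glycoprotein gene of lipid-laden macrophages, at least 6.81-fold higher and below background beside the tumours. Other Gpnmb probes read −0.11 to 0.82. The median of the 15 was −0.15, and 11 of them read lower in tumours without passing, among them the Kupffer cell receptor genes Clec4f at −1.46 (SE 0.56) and Vsig4 at −1.001 (SE 0.48), named after their values were seen. The summed normalized signal of the list ranged from 7797 to 12634 units in adjacent livers and from 12667 to 14897 in tumours. Without Cd9, an alternative chosen after seeing the data, it ranged from 7184 to 11720 in adjacent livers and from 5784 to 9315 in tumours. The part of these cells in the Apoe signal was not tested. In bulk tissue, fewer cells of a type and less RNA per cell cannot be told apart.

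Apoc1, Apoc2, Apoc3, Apoa4 and Apoa5 encode the exchangeable proteins that act on triglyceride clearance: C-II activates lipoprotein lipase, C-III and C-I slow clearance, and A-V promotes it. The brighter Apoc2 probe, ILMN_2647820, read 10.97, 10.96 and 10.48 in adjacent livers of animals 1293, 1309 and 1316 and 11.42, 11.14 and 11.37 in tumours. All 3 tumours lay above all 3 adjacent livers, and in raw units the signal of animal 1316 was 1537.3 beside the tumour and 3151.6 in it. The difference was 0.51 (SE 0.16, interval 0.17 to 0.85, adjusted p = 0.117, limma), with adjusted p-values from 0.0524 to 0.348 over 17 alternatives. The exact permutation p of 0.1 again followed from the lack of overlap. The dimmer probe, ILMN_2880540, read 8.46, 8.58 and 8.31 beside tumours and 8.59, 8.32 and 9.18 in them. On that probe only the tumour of animal 1316 stood above the adjacent livers by a wide margin, and the groups overlapped (0.25, SE 0.19, adjusted p = 0.665). Without that tumour the difference was 0.005. The 2 probes thus gave different pictures in animal 1309, with 0.19 on the brighter and −0.26 on the dimmer.

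Apoa4, which in the mouse is made in intestine and liver, was read by 3 probes, and each showed every tumour below its own adjacent liver. On the brightest, ILMN_1250349, adjacent livers read 12.67, 11.68 and 11.74 and tumours 12.07, 11.54 and 10.94 for animals 1293, 1309 and 1316. Animal 1293 was highest in both tissues, its tumour lay above the other 2 adjacent livers, and the groups overlapped. Without the adjacent liver of animal 1293 the difference on this probe was −0.19, and without the tumour of animal 1316 it was −0.23. The differences were −0.51 (SE 0.29, interval −1.14 to 0.11), −0.61 (SE 0.33) for ILMN_2834123 and −0.72 (SE 0.30) for ILMN_2754104, with adjusted p = 0.483, 0.461 and 0.285 (limma). With the animal as a fixed replicate block the last 2 passed (adjusted p = 0.0245 and 0.0152) and the brightest did not (0.0835); with the random block none did. The 3 probes read the same transcript in the same arrays and are no replicates of each other. None of 7 intestine markers measured was above background on at least 3 arrays.

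Apoa5 read 11.02, 11.22 and 11.15 in adjacent livers and 10.78, 10.93 and 11.15 in tumours, for animals 1293, 1309 and 1316. Only animal 1316 read no lower in its tumour, and the fitted difference was −0.18 (SE 0.14, interval −0.47 to 0.12, adjusted p = 0.659, limma). Apoc1 read between 15.43 and 15.49 in adjacent livers and between 15.36 and 15.43 in tumours on its brighter probe. Its differences were −0.05 (SE 0.12, interval −0.31 to 0.20) and, on the dimmer probe, −0.07 (SE 0.12, interval −0.33 to 0.20). Apoc3 read between 15.68 and 15.70 in adjacent livers and between 15.64 and 15.70 in tumours, a difference of −0.01 (SE 0.12, interval −0.27 to 0.24, adjusted p = 0.98).

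**Figure D3:**
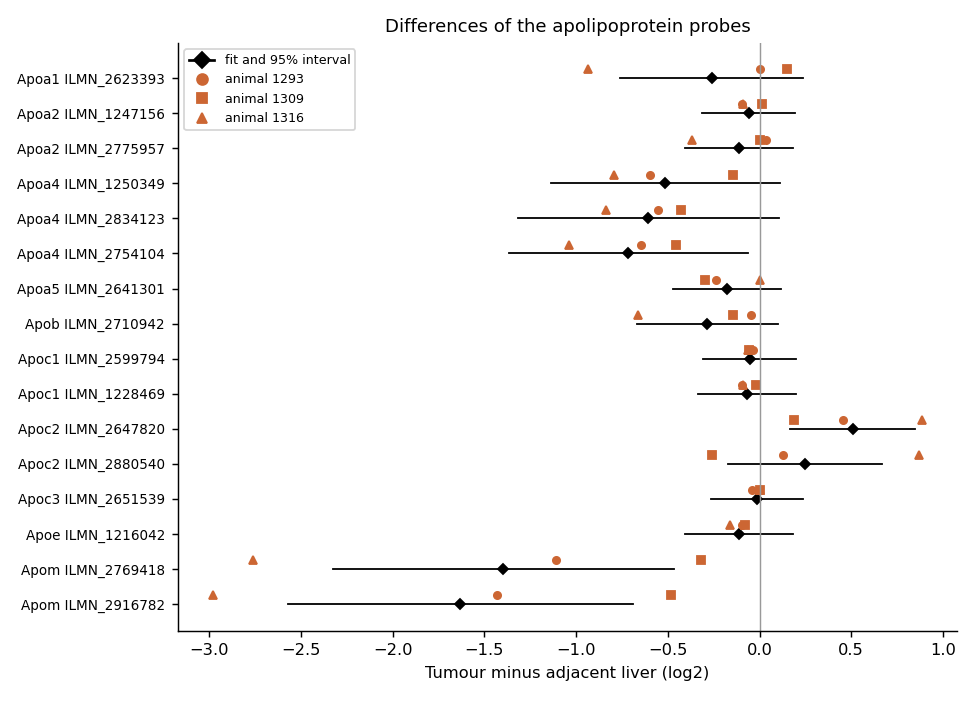
Tumour minus adjacent liver (log2) for the 16 apolipoprotein probes. Black diamonds and bars are the fit and its 95% interval, and orange markers are the 3 animals. The intervals of both Apom probes, 1 Apoa4 probe and the brighter Apoc2 probe leave out 0 before adjustment, and animal 1316 lies farthest from 0 for 12 of the 16 probes.

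By animal, the tumour of 1316 held most of the large differences. Against its own adjacent liver, 4 of the 10 genes read lower by more than 0.5 log2 units in animal 1316 (Apom, Apoa1, Apoa4 and Apob, at −2.76, −0.93, −0.80 and −0.66) and 1 read higher (Apoc2, at 0.89). In animal 1293, 2 read lower by as much (Apom at −1.11 and Apoa4 at −0.60) and 0 higher, and in animal 1309 there were 0 in either direction. Among 8298 genes above background on at least 3 arrays, all 10 members among them, 18.5% were lower and 18.7% higher by as much in animal 1316, 11.7% and 12.7% in animal 1293, and 4.24% and 8.47% in animal 1309. The median difference of the 10 genes was −0.13 in animal 1316, −0.07 in animal 1293 and −0.07 in animal 1309. With 1 tumour per animal, differences between animals have no replicate check.

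Several members were read close to the brightest signal of their arrays. A probe was counted as near saturation on an array where its raw signal was within 1 log2 unit of that array's highest. The limit of the scanner is not known here, so saturation itself was not measured. This held for 7 probes of 5 genes: on all 6 arrays for both Apoa2 probes, both Apoc1 probes, Apoc3 and Apoe, and on 5 arrays for Apoa1, whose exception was the tumour of animal 1316. The Apoc3 probe was the brightest of the whole array on 4 of 6 arrays, and quantile normalization gives such a probe the same value on each of them. On raw scale the 6 probes near saturation on all arrays read lower in the tumour than in the adjacent liver of animal 1293 by 0.19 to 0.30 log2 units. The array maximum of that tumour was also lower, by 0.17. In animal 1309 the same probes differed by −0.08 to 0.05, and in animal 1316 by −0.32 to 0.05, with array maxima higher in the tumour by 0.05 in both.

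Calls were made among other bright probes. Of 179 probes near saturation on at least 1 array, 27 were called, or 15.1%, and the median size of their difference was 0.315, against 0.225 for 13847 other probes above background. The 7 apolipoprotein probes among them differed by −0.26 to −0.01. A probe could enter that set by being bright in 1 group only, which favours large differences. Its share called therefore does not describe probes bright on every array. The 59 probes near saturation on all 6 arrays, to which 6 of the 7 belong, were not looked at apart. For the genes with several probes, the fitted difference was larger in size on the dimmer probes for Apom, Apoa4, Apoa2 and Apoc1, and smaller for Apoc2. The dimmer and brighter probes of Apoa2 and Apoc1 were all near saturation. The part of saturation in the small differences of these 5 genes was not tested.

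**Figure D4:**
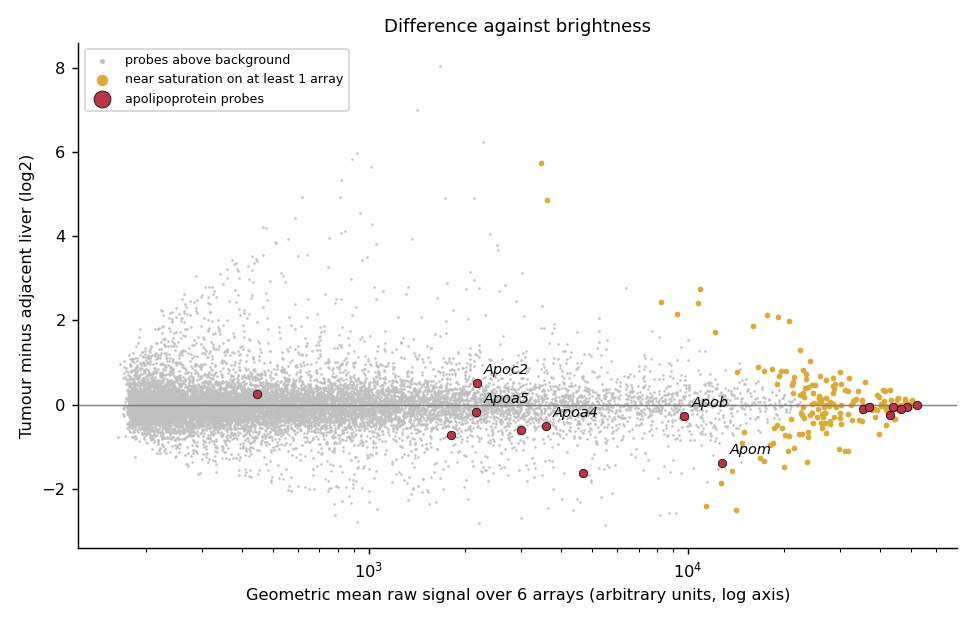
Tumour minus adjacent liver (log2) against the geometric mean raw signal over 6 arrays (log axis) for probes above background on at least 3 arrays (grey), probes near saturation on at least 1 array (yellow) and the 16 apolipoprotein probes (red). The members at the bright end lie between −0.26 and −0.01, and the Apom probes lie at −1.40 and −1.63.

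Genes that act on the same particles moved in both directions. Over all named genes 5.21% were called, with a median difference of −0.01. Of 19 genes of lipoprotein assembly and secretion, all above background on at least 3 arrays, 2 rose and 4 fell, with a median of −0.21. The 2 that rose were Tm6sf2, needed to load lipid onto very low density lipoproteins, by 0.90 (SE 0.14), and the triglyceride synthesis enzyme gene Dgat1 by 0.88 (SE 0.12). Sort1, a sorting receptor that binds apolipoprotein B, fell by 1.46 (SE 0.28), the lipase maturation factor gene Lmf1 by 0.70 (SE 0.13), A1cf, a cofactor of Apob mRNA editing, by 0.68 (SE 0.14) and Cnpy2 by 0.60 (SE 0.14). The 3 other Sort1 probes read between −1.31 and 0.14, and the other Lmf1 probe −0.05. The adjusted p of these 6 lay between 0.00194 and 0.0435 (limma).

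Of 14 genes of plasma lipid transfer and lipolysis, 11 of them above background on at least 3 arrays, 1 rose and 3 fell, with a median of −0.25. Lpl, the lipase that C-II activates, rose by 3.15 (SE 0.36), on 1 of its 2 probes, while the other read −0.14. Lcat, which esterifies cholesterol on HDL with A-I as its activator, fell by 0.83 (SE 0.19), and its second probe read −0.92. The phospholipid transfer protein gene Pltp fell by 1.25 (SE 0.14), and was above background on 2 of 3 tumour arrays. The lipase inhibitor gene Angptl4 fell by 1.32 (SE 0.28), with 0.01 on its other probe. Of 16 receptor and uptake genes, 9 of them above background on at least 3 arrays, 3 rose and 1 fell, with a median of 0.04. Tumours held at least 2.61-fold higher Vldlr and at least 1.41-fold higher Lrp2, receptors of the low density lipoprotein receptor family that did not exceed background beside them. Sdc1, a heparan sulfate proteoglycan that binds remnants, rose by 1.37 (SE 0.22), and the lipolysis-stimulated receptor gene Lsr fell by 0.87 (SE 0.21). Other probes read −0.22 to 1.39 for Vldlr, −0.10 to −0.04 for Lrp2 and 0.07 to 1.62 for Sdc1, and that of Lsr read 0.10.

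Of 24 measured regulators that act on apolipoprotein genes, 23 of them above background on at least 3 arrays, 2 rose and 1 fell, with a median of −0.29. The coactivator gene Ppargc1a rose by 2.08 (SE 0.18), with −0.10 on its other probe, and the nuclear receptor gene Esrra by 1.01 (SE 0.21). Mlxipl, the carbohydrate response factor ChREBP, fell by 1.15 (SE 0.24), and by 1.24 on its second probe. Of 21 other listed genes, all but Apip named as apolipoproteins or for them, 10 were above background on at least 3 arrays, 1 rose and 1 fell. Apol9a rose by 0.90 (SE 0.19) and Apol7a fell by 1.27 (SE 0.26). Apol9a has a near-identical copy, so its probe can read more than 1 transcript. The 4 serum amyloid A genes, whose proteins ride on HDL in inflammation, had 0 calls; Saa4 differed by −2.45 (SE 1.07) and Saa3 by −1.03 (SE 0.42), with adjusted p = 0.31 and 0.272 (limma). With the fixed replicate block 2 of the 4 passed, Saa1 (−1.83, adjusted p = 0.0145), named here after its value was seen, and Saa4 (adjusted p = 0.0497). Summed, their normalized signals were 33468, 37293 and 6696 units in adjacent livers and 8952, 29066 and 444 in tumours of animals 1293, 1309 and 1316, so animal 1316 was lowest in both tissues.

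The apolipoprotein genes of the mouse lie partly in clusters, Apoa1, Apoc3, Apoa4 and Apoa5 side by side on chromosome 9 and Apoc2, Apoc4, Apoc1 and Apoe on chromosome 7 by the RefSeq gene order. Of 49 listed genes within 10 protein-coding genes of a member, 4 rose and 1 fell, with a median of 0.05. Those that rose were Zpr1, next to Apoa5, by 0.91 (SE 0.20), Tomm40, next to Apoe, by 0.58 (SE 0.13), Tomm40l, next to Apoa2, by 0.61 (SE 0.15), and Sdc1, 7 genes from Apob. Abhd16a, 6 genes from Apom, fell by 0.55 (SE 0.13). The other probes of Zpr1 and Tomm40 read −0.22 and 0.05. Bag6, next to Apom, differed by −0.01 (SE 0.13), and was named for its place and not for its value.

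Markers of other liver cells were measured beside these results. Of 10 stellate cell and fibroblast markers, 0 rose and 3 fell. Reln fell by 1.25 (SE 0.25), Dcn fell by 0.93 (SE 0.21) and Lum fell by 0.64 (SE 0.15), while other Reln probes read −0.10 to 0.22. In the same list 3 genes read higher without passing: Acta2, the smooth muscle actin of activated stellate cells, at 1.17 (SE 0.38, adjusted p = 0.146, limma), and the collagen genes Col3a1 at 0.51 (SE 0.13, adjusted p = 0.0605) and Col1a1 at 0.42 (SE 0.19, adjusted p = 0.327), named after their values were seen. Acta2 passed with the fixed replicate block (adjusted p = 0.0164) and Col3a1 with the random block (adjusted p = 0.0477). The summed signal of the 10 was 9203 to 11335 units in adjacent livers and 4898 to 8177 in tumours, lowest in the tumour of animal 1316, where Apom was also lowest. Of 10 endothelial, 5 biliary, 7 lymphocyte, 7 neutrophil and 4 erythroid markers 0 were called, and none of the 7 lymphocyte markers was above background on at least 3 arrays. The summed signal of the 10 hepatocyte markers was 266566 to 284175 units in adjacent livers and 261177 to 280010 in tumours, with Cps1, the first enzyme of the urea cycle, called higher by 0.59 (SE 0.14) and Alb lower by 0.84 (SE 0.15). That sum is weighted towards very bright probes, among them Trf (15.63 beside tumours, 15.57 in them) and Hpx (15.63 and 15.65). Such probes can hold a sum steady, so it gives no measure of the share of hepatocytes. The part of cell composition in the Apom, Apoa4 and Apoc2 values was not tested.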

How the data were processed

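The deposited intensity table holds the authors' linear signal for each of 45281 probes on 6 arrays. Its values are neither background-subtracted nor normalized between arrays, and neither control probes nor detection p-values come with it. A second deposited table gives the authors' own log2 values, with array medians of 7.26. After sorting, no value lies further than 0.00504 from log2 of the averaged sorted intensities, so these are quantile-normalized and not centred per gene. This was worked out from the numbers alone. GenomeStudio is named in the submitters' processing notes, with no version or role.

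Background correction by normexp (offset 50), quantile normalization and log2 were run in limma 3.58.1 (R 4.3.3, statmod 1.5.0). Probes were named by the platform annotation, and an update by gene identifier changed 0 symbols: 34885 probes had 1 symbol, 18 had several and 10378 were not listed. A gene was read from its brightest probe. The background level of an array was the mode of its log2 signals plus 3 SDs of the values mirrored about it. Tumours were compared with adjacent liver with lmFit and eBayes over all probes, with Benjamini-Hochberg adjustment over all 45281. Deviations from the group means of a tumour and its own adjacent liver correlated at 0.41, 0.25 and 0.09 for animals 1293, 1309 and 1316 over 14026 probes above background on at least 3 arrays; the titles pair the arrays by animal, so fits with the animal as a block are given where they change a call. The test was checked on simulated data, with independent noise of the same spread in both groups and no animal effect. That check does not cover the unequal spread of Apom or the pairing. The alternatives were other background corrections and normalizations, the authors' table, a filter on dim probes, averaged probes, another variance model, the blocks and leaving out each array.

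The members and the gene lists were chosen with earlier results of these data known. Named genes are the 10 members, up to 4 listed genes called in a list's majority direction with up to 2 called the other way, the 2 with the smallest p of a list without calls, Alb, and the 3 genes most like the member with the smallest p. Other genes given a value or a block call were picked after these were seen, apart from Bag6, named for its place. Promoter sequences are RefSeq's, of build GRCm38.p6.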

Additional observations from a re-analysis of the deposited data

How the results depend on the processing

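The comparison rests on 3 arrays per group, and 5 of the 10 genes were read near saturation, whose part in their differences was not tested. Apoa2, Apoa4, Apoa5, Apob, Apoc1, Apoc2, Apoe and Apom kept the sign of their fitted difference in all 17 alternatives. Apoc3 turned to 0.012 with cyclic loess, and its values without 1 array ran from −0.024 to 0.006. Those of Apoa1 ran from −0.434 to 0.078 and those of the dimmer Apoa2 probe from −0.172 to 0.011, each highest without the tumour of animal 1316. The fixed replicate block called 1 gene, Apom (−1.40, adjusted p = 0.0332), and 4 probes; the random block called 0 of both. Neither block changed the call of another gene read from its brightest probe. Among the listed genes the fixed block added 9 calls (Pon1, Lrp1, Saa1, Saa4, Pcp4l1 and Nr1i3 lower, Apol9b, Lyve1 and Acta2 higher) and the random block 5 (Lrp1, Creb3l3, Pcp4l1 and Nr1i3 lower, Col3a1 higher), and both lost 0; Nr1i3 and Pcp4l1 are neighbours of Apoa2. Leaving out 1 array gave 0 to 1 genes and 0 to 2 probes called among the members, and Apom from −1.91 to −0.72. Over all genes 992 were called (694 higher, 298 lower), against 653 (126 lower) without background correction and with the authors' log2 table, 506 (448 higher, 58 lower) with an offset of 16 and 536 (444 higher, 92 lower) with probes averaged. The lower genes numbered 130 with median scaling, 86 without normalization, 173 over probes above background and 593 with the fixed block. Without 1 array the counts ran from 446 (tumour of 1293) to 1578 (tumour of 1309), through 495 and 587 without the adjacent livers of 1316 and 1309 and 635 without the tumour of 1316, with 386 to 919 higher and 51 to 659 lower. Of 340 counts of called genes in the fixed lists under these alternatives, 241 stayed within 1.5 times and 99 moved further. The number of member probes near saturation was 7 under each definition tried. Normalization with negative controls and a slide block were not run, since the tables used here hold neither controls nor slides.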
